A study of Mus musculus with 12 samples.

Results

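The genes for the protein subunits of the mitochondrial ribosome were followed in sorted alveolar macrophages, the phagocytes of the air spaces. Members were the rows whose mouse symbol begins with Mrpl or Mrps and a number, with pseudogene rows left out. The rule found 78 genes of 26855 in the count table, 49 named Mrpl and 29 named Mrps, and all 78 were among the 12625 genes with enough counts to be tested. The cells came from bronchoalveolar lavage fluid of mice 14 days after bleomycin, which injures the lung and leads to fibrosis. The series is about border-associated alveolar macrophages (BAAM). Per the design text, lavage cells were split by size filtration into fractions rich and poor in these cells, and alveolar macrophages high for side scatter and for the neutral lipid dye BODIPY were sorted from them beside cells low and intermediate for both. The 12 libraries are titled UPBIG, UPSMALL and DOWN, with 4 libraries each, and every group had received bleomycin, so no uninjured mice are among them. The labels do not say which title is which fraction or gate, and the groups are called here by their titles. Strain, sex, age and dose are not given in the labels used here, nor whether the 4 libraries of a group came from separate mice or pools. The p-values below set group differences against the spread between these libraries. That spread may be partly technical, so the p-values may not hold for differences between mice.

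Mitochondria carry ribosomes of their own, built from a large and a small subunit that resemble those of bacteria. The ribosomal RNAs, mt-Rnr1 in the small and mt-Rnr2 in the large subunit, are transcribed inside the organelle, whereas the proteins are encoded in the nucleus, made in the cytosol and imported. The mitoribosome translates the few messages of the mitochondrial genome, all for subunits of the respiratory chain and ATP synthase, so a cell draws on both genomes to make one machine. Some of its proteins have bacterial counterparts and others are found in mitochondria alone. Of the 78 members, 51 belong to the large subunit (30 of the bacterial type and 21 specific to mitochondria) and 26 to the small subunit (16 of the bacterial type and 10 specific to mitochondria). Mrps30 and Mrps18a are counted with the large subunit, in which their proteins sit in spite of their names. The remaining gene, Mrps36, was named as a small-subunit protein and is now known as a subunit of the 2-oxoglutarate dehydrogenase complex. It was kept because the rule goes by symbol. Of the 4 pseudogene rows left out, Mrpl23-ps1 had a mean of 6.87 CPM in UPBIG, 7.28 in UPSMALL and 7.99 in DOWN, and the other 3 had at most 0.259 CPM in any group mean.

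The members are scattered over 17 chromosomes, and the regions at their starts are shown for the genes on which the results below turn. Each sequence covers 250 bases before to 50 bases after the annotated start, read 5′ to 3′ on the strand of the gene, from the RefSeq promoter table for GRCm38.p6. The first 4 are the members with the smallest p in the joint test of the 3 groups, and Mrpl44 and Mrpl27 were added after their values were seen because they alone of the 8 members called between UPBIG and DOWN hold one of the motifs searched. Capitals mark a motif.
Mrps6 (chr16:92058086-92058385, + strand): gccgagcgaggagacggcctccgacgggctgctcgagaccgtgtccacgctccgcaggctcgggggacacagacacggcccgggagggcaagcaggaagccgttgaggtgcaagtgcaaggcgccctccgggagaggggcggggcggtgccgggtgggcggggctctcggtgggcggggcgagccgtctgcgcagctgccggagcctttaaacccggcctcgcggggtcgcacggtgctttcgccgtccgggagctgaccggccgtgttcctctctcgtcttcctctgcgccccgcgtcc
Mrpl41 (chr2:24975049-24975348, - strand): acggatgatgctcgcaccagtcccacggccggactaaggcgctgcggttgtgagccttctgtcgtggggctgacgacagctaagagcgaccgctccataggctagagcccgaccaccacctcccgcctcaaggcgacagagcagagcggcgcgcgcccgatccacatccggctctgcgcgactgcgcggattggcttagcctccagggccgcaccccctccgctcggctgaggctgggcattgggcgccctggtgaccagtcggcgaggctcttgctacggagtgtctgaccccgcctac
Mrpl1 (chr5:96209865-96210164, + strand): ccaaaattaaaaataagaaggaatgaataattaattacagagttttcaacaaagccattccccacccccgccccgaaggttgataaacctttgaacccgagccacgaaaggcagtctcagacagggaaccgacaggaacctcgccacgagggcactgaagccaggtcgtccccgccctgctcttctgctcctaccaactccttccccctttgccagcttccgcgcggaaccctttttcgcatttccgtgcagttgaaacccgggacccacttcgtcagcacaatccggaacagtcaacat
Mrps25 (chr6:92183974-92184273, - strand): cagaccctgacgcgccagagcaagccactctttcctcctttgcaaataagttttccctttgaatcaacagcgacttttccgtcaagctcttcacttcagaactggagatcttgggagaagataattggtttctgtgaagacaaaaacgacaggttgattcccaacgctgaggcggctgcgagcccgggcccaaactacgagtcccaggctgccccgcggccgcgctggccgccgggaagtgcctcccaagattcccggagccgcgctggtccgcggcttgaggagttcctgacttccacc
Mrpl44 (chr1:79775768-79776067, + strand): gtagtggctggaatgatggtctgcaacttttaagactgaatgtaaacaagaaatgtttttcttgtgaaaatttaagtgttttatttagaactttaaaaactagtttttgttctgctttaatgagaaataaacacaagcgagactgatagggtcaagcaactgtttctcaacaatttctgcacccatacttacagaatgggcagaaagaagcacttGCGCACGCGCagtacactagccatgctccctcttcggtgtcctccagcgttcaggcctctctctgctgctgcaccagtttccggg
Mrpl27 (chr11:94653541-94653840, + strand): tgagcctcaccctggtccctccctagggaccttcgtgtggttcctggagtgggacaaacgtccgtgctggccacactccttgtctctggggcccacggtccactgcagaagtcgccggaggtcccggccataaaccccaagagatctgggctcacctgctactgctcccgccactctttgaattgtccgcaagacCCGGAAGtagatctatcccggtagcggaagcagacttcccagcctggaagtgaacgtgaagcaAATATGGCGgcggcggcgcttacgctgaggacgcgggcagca

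Motifs of 3 factors known for housekeeping and mitochondrial promoters were searched on both strands of these windows. They were an NRF1-type palindrome of GCGCA and GCGC around 1 free base, an ETS core with the letters CCGGAAG, and a YY1-type site with the letters AANATGGCG. Of the 69 members with an entry in the table, 13 held the NRF1-type letters (18.8%, against 5.19% of 27025 genes), 26 the ETS core (37.7%, against 9.93%) and 11 the YY1-type letters (15.9%, against 2.76%). At least 1 of the 3 was found in 42 of the 69 members, or 60.9%, against 15.9% of all genes. Each motif was thus found in a larger share of these genes than of all genes searched. The 27025 genes were not limited to the 12625 tested here. The windows of Mrps6, Mrpl41, Mrpl1 and Mrps25 held none of the 3. Mrpl44 held the NRF1-type match GCGCACGCGC beginning at position -35 from the start, and Mrpl27 held the ETS core beginning at position -55 and AATATGGCG at position 8. A match is a description of letters and not of a bound factor, and the absence of one says only that these letters are not in this window.

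Every member was expressed in every library. No value was 0, the lowest count in any library was 79, and the total over the 12 libraries ran from 1862 to 76053 counts per gene. Levels are given as CPM, counts scaled by TMM to a common library size, and, where genes are compared with each other, as CPM per kb of annotated exon. Per kb, the median member stood at 22.6 and the range was 238-fold. Mrps21 was highest at 286 CPM per kb, followed by Mrpl27 at 136 and Mrps18c at 135, small proteins with bacterial counterparts. Mrps22 at 2.52, Mrps30 at 1.62 and Mrps5 at 1.2 CPM per kb were lowest. The per-kb scale uses all annotated exons of a gene merged, so a gene with long, rarely used exons is understated. Without division by length, Mrpl33 had the highest mean level, 314 CPM over the 12 libraries.

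Between the groups these levels lay close together. The median member stood at 23.3 CPM per kb in UPBIG, 23.4 in UPSMALL and 22.0 in DOWN, and for 74 of the 78 members the highest group mean was within 1.5 times the lowest. The spread between libraries of a group was small, with a median coefficient of variation of 13.1% in UPBIG, 12.1% in UPSMALL and 10.9% in DOWN. Summed over the 78 genes, the level was 5934, 5347, 5782 and 6155 CPM in the UPBIG libraries, 5698, 5061, 5464 and 5485 CPM in the UPSMALL libraries, and 5399.9, 5025, 5442 and 5577 CPM in the DOWN libraries. The UPBIG range overlapped both others. The mean sum was 5805 ± 341 CPM in UPBIG, 5427 ± 266 CPM in UPSMALL and 5361 ± 236 CPM in DOWN (SD, n = 4 each), so that UPBIG stood at 1.08 times DOWN and 1.07 times UPSMALL, and UPSMALL at 1.01 times DOWN. With counts divided by library totals alone the order turned, with a mean sum of 5053 CPM in UPBIG, 5740.4 CPM in UPSMALL and 5842 CPM in DOWN. The summed large-subunit level per small-subunit level was 2.07 in UPBIG, 2.06 in UPSMALL and 2.05 in DOWN. In sorted bulk samples, fewer cells of a type and less RNA per cell cannot be told apart.

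The transcripts of the mitochondrial genome, which these ribosomes translate, differed between the same libraries far more. The 13 protein transcripts summed to 38094, 45554, 45149 and 42934 CPM in the UPBIG libraries, to 19928, 23515, 26235 and 22974 CPM in the UPSMALL libraries, and to 25874, 23233, 24829.9 and 18697 CPM in the DOWN libraries. All UPBIG libraries lay above all libraries of the other groups, which overlapped each other. The mean was 42933 ± 3425 CPM in UPBIG, 23163 ± 2586 CPM in UPSMALL and 23158 ± 3166 CPM in DOWN (SD, n = 4 each), 1.85 times as high in UPBIG as in either. Divided by the summed mitoribosome level of the same library, which removes the scaling between libraries, the mitochondrial protein transcripts stood at 7.43 ± 0.923 in UPBIG, 4.28 ± 0.585 in UPSMALL and 4.33 ± 0.66 in DOWN (SD, n = 4 each). By library the ratio was 6.42 to 8.52 for UPBIG, 3.5 to 4.8 for UPSMALL and 3.35 to 4.79 for DOWN, and UPBIG did not overlap the others.

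**Figure D1:**
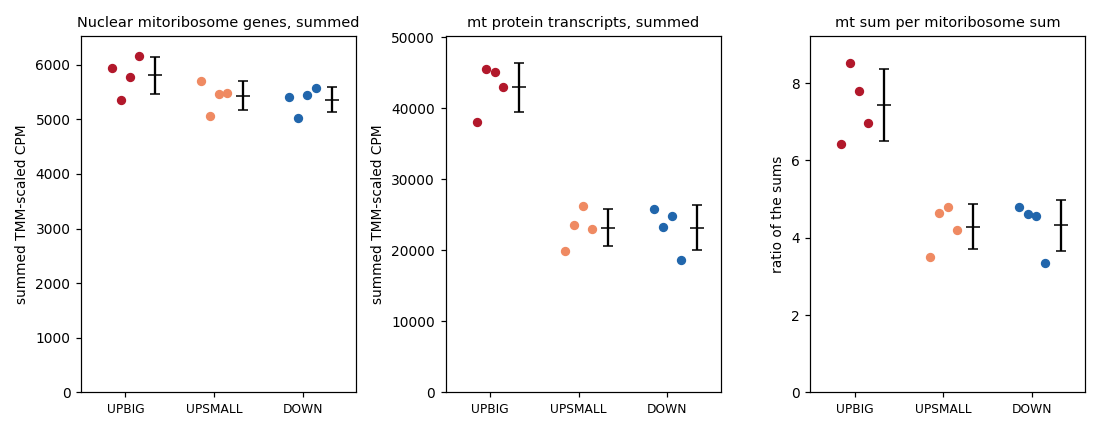
Summed TMM-scaled CPM of the 78 mitoribosome protein genes (left), of the 13 mitochondrially encoded protein transcripts (middle) and the second sum divided by the first (right), with 1 point per library, 4 libraries per group, and the mean and SD beside them. The mitoribosome sums lie between 5025 and 6155 CPM in all groups, whereas the mitochondrial sums lie between 38094 and 45554 CPM in UPBIG and between 18697 and 26235 CPM in UPSMALL and DOWN.

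UPBIG was first compared with DOWN. Mrps6, Mrpl41, Mrpl1, Mrps36, Mrpl16, Mrpl44 and Mrpl27 were higher in UPBIG and Mrps25 was lower, at an adjusted p under 0.05 over all tested genes. These are 8 of 78 members, or 10.3%, where 17.5% of all tested genes were called, 9.03% of them higher and 8.48% lower in UPBIG. By subunit, 5 of 51 large-subunit genes were called higher and none lower, and 1 of 26 small-subunit genes was called in each direction. The bacterial-type proteins had 4 of 46 higher and none lower, the proteins specific to mitochondria 2 of 31 higher and 1 lower. Of the 78 members 33 share exon bases with another gene, and among the 45 that share none 4 were called higher, none lower, with a median log2 fold change of 0.10. The median log2 fold change was 0.09 over the members and -0.03 over all tested genes. Values were positive for 50 members and negative for 28, against 5937 and 6688 of all tested genes. Without UPBIG 1 the median of the members was 0.04. The quartiles of the members were -0.08 and 0.20, and those of all tested genes -0.37 and 0.29. All UPBIG libraries lay above all DOWN libraries for 10 members (12.8%, against 11.0% of tested genes), and below them for 2 members (2.56%, against 10.3%).

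The scaling between libraries bears on this split. TMM factors were 0.858 to 0.896 in UPBIG, 0.992 to 1.17 in UPSMALL and 1.03 to 1.16 in DOWN. With counts divided by library totals alone, 2 members (Mrps6 and Mrpl41) were called higher and 18 lower in UPBIG than in DOWN. Of all 12625 tested genes, 518 were called higher and 3237 lower under that scaling. The median log2 fold change of the members was -0.24. The median of all tested genes then shifted as well, to -0.36. Rescaling libraries shifts all genes nearly alike, so the members stood 0.12 above that median under either scaling, which is no separate evidence. On the same scale of raw library totals, the members took 0.505 ± 0.0205% of the counts in UPBIG, 0.574 ± 0.0576% in UPSMALL and 0.584 ± 0.0437% in DOWN, and the mitochondrial protein transcripts took 3.74 ± 0.342%, 2.45 ± 0.329% and 2.51 ± 0.247% in UPBIG, UPSMALL and DOWN (SD, n = 4 each). Changes of single members below are under TMM scaling, and the call under library totals is given where it differs.

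**Figure D2:**
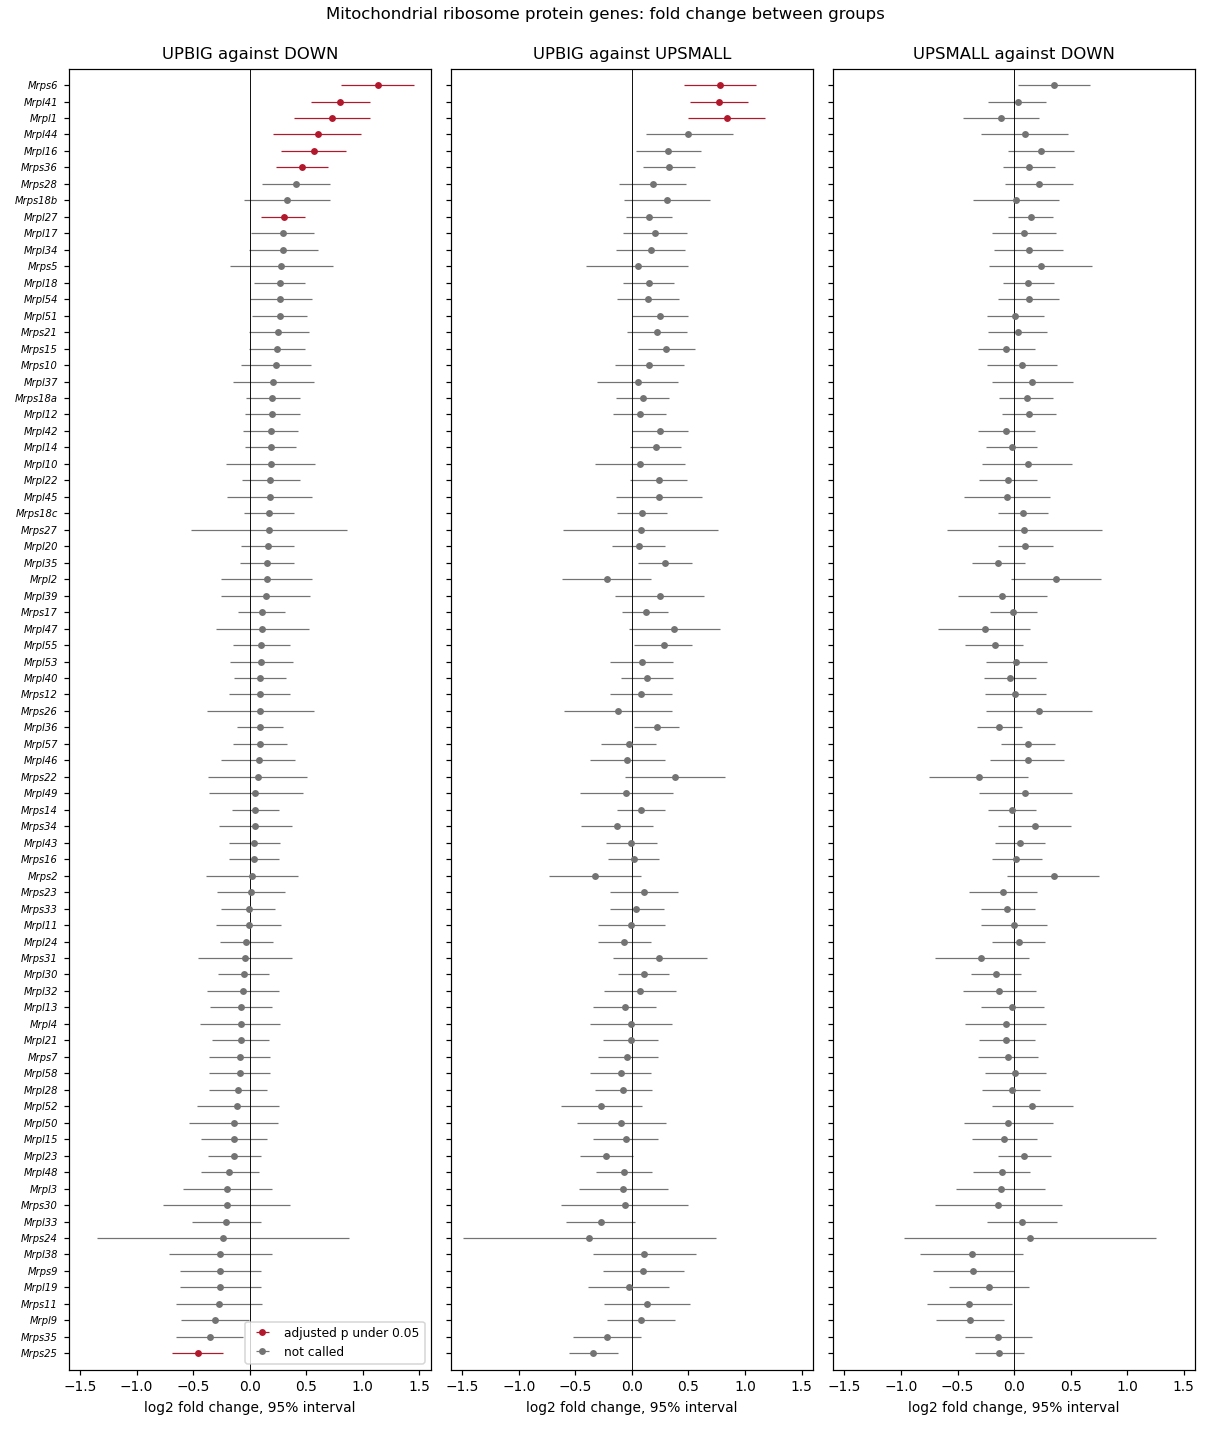
Log2 fold change with its 95% interval for each of the 78 members (rows, ordered by UPBIG against DOWN) in the 3 comparisons, from edgeR under TMM scaling, with members at an adjusted p under 0.05 in red and the others in grey. In UPBIG against DOWN 8 members are called, in UPBIG against UPSMALL 3, and in UPSMALL against DOWN none, and Mrps24 has the widest interval.

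Among small-subunit genes, Mrps6, whose protein is the counterpart of bacterial S6 in the platform of the subunit, differed most. It stood at 85.2, 66.9, 57.7 and 85.7 CPM in the UPBIG libraries, at 42.0, 39.1, 55.4 and 35.8 CPM in the UPSMALL libraries and at 34.0, 30.7, 35.1 and 35.4 CPM in the DOWN libraries. Every UPBIG library was above every UPSMALL library, and every UPSMALL library was above every DOWN library. Mrps6 rose in UPBIG over DOWN (log2 fold change 1.13 ± 0.15 SE, adjusted p = 3.89e-05) and was the only called member past 2-fold. In UPBIG over UPSMALL it rose by 0.78 ± 0.15 (adjusted p = 0.00334), and in UPSMALL over DOWN its value of 0.35 ± 0.15 did not pass the test (adjusted p = 0.329). Mrps6 shares 159 exon bases on the same strand with Slc5a3, the gene of a myo-inositol transporter, so reads there could be assigned to either gene. Mrps6 also shares 305 with Gm49711, a gene that has no counts here because it is not in the count table. Slc5a3 had 3.43 CPM in UPBIG, 2.05 in UPSMALL and 1.23 in DOWN, and was called in UPBIG against DOWN (1.47 ± 0.45, adjusted p = 0.0278). That call was lost under library totals (1.15) and without UPBIG 2, 3 or 4 or DOWN 3 or 4, where its log2 fold change ran from 1.28 to 1.81 over all single omissions. The level of Slc5a3 was far below that of Mrps6 in each group.

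Mrps25, a small-subunit protein specific to mitochondria, was the only member called lower in UPBIG than in DOWN under TMM scaling with all 12 libraries. It had 60.3, 61.3, 60.6 and 62.8 CPM in the UPBIG libraries, 75.9, 77.1, 77.9 and 78.8 CPM in the UPSMALL libraries and 86.4, 79, 75 and 97.5 CPM in the DOWN libraries. The UPBIG libraries lay below all others and close to one another, while UPSMALL and DOWN overlapped. In UPBIG against DOWN the log2 fold change was -0.46 ± 0.11 (adjusted p = 0.00431). In UPBIG against UPSMALL it was -0.34 ± 0.11 (adjusted p = 0.0685), which missed the threshold. It was called lower there by DESeq2, under library totals and with a replicate block. The gene shares 4590 exon bases, 69.8% of its exons, with Nr2c2 on the opposite strand, a nuclear receptor gene at 4.89 CPM in UPBIG, 4.87 in UPSMALL and 6.18 in DOWN (-0.34 in UPBIG against DOWN, adjusted p = 0.552). Whether counting used strand is not given in the sources used here, and without strand reads of the pair cannot be told apart.

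Among large-subunit genes, Mrpl41, a protein specific to mitochondria, had 141, 139, 164 and 196 CPM in the UPBIG libraries, 101, 88.0, 96.6 and 89.8 CPM in the UPSMALL libraries and 97.7, 85.0, 82.6 and 103 CPM in the DOWN libraries. All UPBIG libraries were above the other 8, which overlapped. It rose by 0.80 ± 0.12 in log2 terms over DOWN (adjusted p = 0.000144) and by 0.77 ± 0.12 over UPSMALL (adjusted p = 0.000554). Mrpl1, the counterpart of bacterial L1, which forms the stalk where spent tRNA leaves the ribosome, had 43.0, 49.3, 59.3 and 73.0 CPM in UPBIG, 30.7, 32.8, 32.5 and 29.3 CPM in UPSMALL and 31.7, 35.5, 41.5 and 27.0 CPM in DOWN. Here too all UPBIG libraries were highest, with the lowest of them, at 43.0 CPM, near the highest DOWN library at 41.5. Mrpl1 rose by 0.73 ± 0.16 over DOWN (adjusted p = 0.00358) and by 0.84 ± 0.16 over UPSMALL (adjusted p = 0.00276). Under library totals the change over DOWN was 0.41 and missed the threshold (adjusted p = 0.0521). Neither gene shares an exon with another gene.

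Mrpl16, which lies by the catalytic centre of the large subunit in bacteria, had 42.0, 47.1, 41.2 and 56.8 CPM in UPBIG, 37.7, 37.2, 33.9 and 40.5 CPM in UPSMALL and 37.8, 27.5, 30.6 and 30.4 CPM in DOWN. The UPBIG libraries lay above all others, by a small margin over the highest UPSMALL library. Its rise over DOWN was 0.57 ± 0.14 (adjusted p = 0.00698) and fell short under library totals (0.24, adjusted p = 0.224). Mrps36 had 139, 139, 151 and 149 CPM in UPBIG, 131, 114, 118 and 98.3 CPM in UPSMALL and 93.6, 103, 117 and 107 CPM in DOWN, with all UPBIG libraries highest. It rose by 0.46 ± 0.11 over DOWN (adjusted p = 0.00674), again not under library totals (0.13, adjusted p = 0.37). Against UPSMALL, its value of 0.33 did not pass with edgeR (adjusted p = 0.0965) and passed with DESeq2. Without Mrps36, which is no ribosome subunit, 6 of 77 members were called higher in UPBIG than in DOWN and the median log2 fold change was again 0.09.

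The other called members were close to the threshold. Mrpl44, a protein with a fold related to ribonuclease III, had 33.8, 25.8, 23.6 and 30.9 CPM in UPBIG, 24.3, 21.7, 21.9 and 12.9 CPM in UPSMALL and 17.9, 16.7, 19.5 and 21.3 CPM in DOWN. UPBIG lay above DOWN and overlapped UPSMALL. Its log2 fold change over DOWN was 0.60 ± 0.18 (adjusted p = 0.0303), which lost the call under library totals (0.27, adjusted p = 0.264) and without UPBIG 1, UPBIG 4, DOWN 1, DOWN 2 or DOWN 3, with values of 0.51 to 0.68 over all single omissions. Mrpl44 shares 126 exon bases with Wdfy1 on the opposite strand, which had 7.04 CPM in UPBIG, 8.13 in UPSMALL and 11.1 in DOWN. Mrpl27, whose bacterial counterpart reaches towards the tRNA in the catalytic centre, had 145, 157, 136 and 152 CPM in UPBIG, 132, 136, 136 and 128 CPM in UPSMALL and 122, 126, 114 and 119 CPM in DOWN. UPBIG and UPSMALL both lay above DOWN, and they overlapped at about 136 CPM. Its change over DOWN was 0.30 ± 0.10 (adjusted p = 0.0372), was lost without UPBIG 1, UPBIG 2, UPBIG 4, DOWN 1, DOWN 3 or DOWN 4 (0.27 to 0.34 over all single omissions) and without the low-count filter, and turned to -0.03 (adjusted p = 0.872) under library totals. Mrpl27 shares 75 exon bases with Eme1 on the opposite strand, which had 1.35 CPM in UPBIG, 1.83 in UPSMALL and 1.11 in DOWN.

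**Figure D3:**
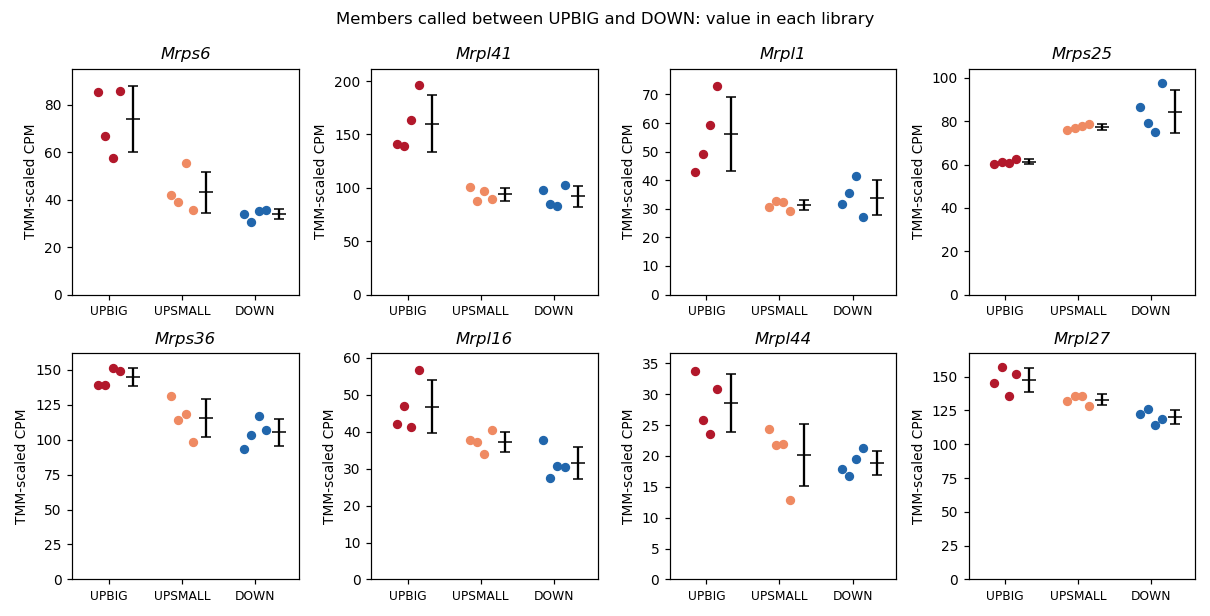
TMM-scaled CPM in each library for the 8 members called between UPBIG and DOWN, with 4 libraries per group as points and the mean and SD beside them, on axes that begin at 0. In 7 genes the UPBIG libraries lie above all DOWN libraries, and in Mrps25 the UPBIG libraries, at 60.3 to 62.8 CPM, lie below all DOWN libraries.

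The 70 members not called in UPBIG against DOWN had log2 fold changes from -0.35 (Mrps35) to 0.41 (Mrps28). Mrps28, a small-subunit protein, had 67.5, 52.8, 49.4 and 60.6 CPM in UPBIG and 44.8, 45.6, 43.6 and 39.7 CPM in DOWN, without overlap, and a change of 0.41 ± 0.14 (adjusted p = 0.0565). Mrps35, another small-subunit protein, had 19.6, 22.6, 28.9 and 25.8 CPM in UPBIG and 29.7, 29.1, 30.3 and 34.9 CPM in DOWN, also without overlap, and a change of -0.35 ± 0.14 (adjusted p = 0.0946). Mrps28 was called higher in 6 of 17 alternatives (DESeq2, its size factors, the replicate block, and without UPBIG 3, UPSMALL 3 or UPSMALL 4). Mrps35 was called lower in 2, under library totals (-0.68, adjusted p = 0.00374) and without UPBIG 3 (-0.45, adjusted p = 0.0463). For 69 of the 70 the 95% interval of the change lay within 2-fold in either direction, and for 56 within 1.5-fold. Over all tested genes 55.8% had an interval within 2-fold, and the median standard error was 0.14 for members and 0.24 for all tested genes. The exception was Mrps24, a small-subunit gene with 109, 105, 33.5 and 53.6 CPM in UPBIG, 134, 108, 86.9 and 62.5 CPM in UPSMALL and 29.4, 95, 103 and 128 CPM in DOWN. Each group held both high and low libraries. Its change was -0.24 ± 0.50, and it shares 226 exon bases with Urgcp on the same strand.

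UPBIG against UPSMALL compares the groups whose titles differ in BIG and SMALL. Mrpl41, Mrpl1 and Mrps6, described above, were called higher in UPBIG. No member was called lower by edgeR under TMM scaling without a replicate block. In that fit 13 members had an unadjusted p under 0.05 in either direction, as did 2262 of 12625 tested genes. DESeq2 called 1 lower, Mrps25, as did edgeR with the block. Of all tested genes DESeq2 called 450 lower and the block 440. UPBIG is in this comparison and in the first, so they are not independent. The 3 called members are 3.85% of the 78, where 5.7% of all tested genes were called, 3.22% higher and 2.49% lower. All 3 kept their call under each alternative that was run, with log2 fold changes of 0.49 to 0.83 for Mrpl41, 0.56 to 0.95 for Mrpl1 and 0.50 to 0.92 for Mrps6. The median over the members was 0.08, beside -0.03 over all tested genes, and 0.05 without UPBIG 1. With library totals alone these medians were -0.20 and -0.31, and 3 members were called higher and 4 lower (Mrpl23, Mrpl33, Mrps25 and Mrps35). Of all 12625 tested genes, 189 were called higher and 1433 lower under that scaling. UPBIG libraries all lay above UPSMALL libraries for 7 members (8.97%, against 6.49% of tested genes) and all below for 1 (1.28%, against 5.34%). Of the 75 uncalled members, 74 had an interval within 2-fold and 60 within 1.5-fold. Mrpl44 had the highest value among them (0.50 ± 0.18, adjusted p = 0.132) and Mrps24 the lowest. Mrps22, a small-subunit protein specific to mitochondria, followed at 0.38 ± 0.21 (adjusted p = 0.363), with 13.5, 10.4, 9.95 and 10.5 CPM in UPBIG and 7.80, 9.84, 8.31 and 8.03 CPM in UPSMALL, without overlap.

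UPSMALL against DOWN gave no called member with edgeR and none with DESeq2. By edgeR 3 members had an unadjusted p under 0.05, as did 1623 of 12625 tested genes. Of all tested genes 1.14% were called, 0.594% higher and 0.547% lower in UPSMALL. The median log2 fold change of the members was 0.01, and the values ran from -0.40 (Mrps11) to 0.37 (Mrpl2). UPSMALL libraries lay above all DOWN libraries for 3 members (3.85%, against 3.87% of tested genes) and below them for none (against 4.38%). Mrps11, in the platform of the small subunit, had 26.7, 18.3, 20.8 and 16.6 CPM in UPSMALL and 32.9, 22.8, 28.7 and 23.9 CPM in DOWN, with overlap (-0.40 ± 0.18, adjusted p = 0.361). Mrpl9, of the large subunit, had 19.1, 18.3, 18.5 and 21.4 CPM in UPSMALL and 24.0, 21.0, 28.3 and 27.9 CPM in DOWN, which overlapped at 1 library each (-0.39 ± 0.14, adjusted p = 0.223). For 77 of the 78 members the 95% interval lay within 2-fold, and for 63 within 1.5-fold. In the joint test of any difference among the 3 groups, 6 members were called, where 13.8% of all tested genes were. They were Mrps6, Mrpl41, Mrpl1, Mrps25, Mrps36 and Mrpl16.

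Beside these, most mitochondrial protein transcripts were called higher in UPBIG than in either other group. In UPBIG against DOWN 11 of 13 were called higher and none lower, with a median log2 fold change of 0.97 (8 higher and 0.66 under library totals). Of all tested genes 9.03% were called higher, and 518 of 12625 under library totals. In UPBIG against UPSMALL 10 of 13 were called higher, against 3.22% of all tested genes, with a median of 0.98 and none lower. In UPSMALL against DOWN none was called by edgeR or by DESeq2, none had an unadjusted p under 0.05, and the median was -0.02. mt-Atp6, a subunit of ATP synthase, averaged 9728 ± 571 CPM in UPBIG, 4985 ± 458 in UPSMALL and 5012 ± 668 in DOWN (SD, n = 4 each), and rose by 0.96 ± 0.12 over DOWN (adjusted p = 2.15e-05) and by 0.96 ± 0.12 over UPSMALL (adjusted p = 4.92e-05). Of the subunits of complex I, mt-Nd4 rose by 0.97 ± 0.14 over DOWN and by 1.03 ± 0.14 over UPSMALL, and mt-Nd1 by 0.84 ± 0.14 over DOWN. mt-Cytb of complex III rose by 1.17 ± 0.19 over UPSMALL. The transcripts not called against DOWN were mt-Nd3 (0.43 ± 0.43) and mt-Nd4l, which was at 0 in several libraries. Against UPSMALL, mt-Nd3 (0.02 ± 0.43), mt-Nd4l and mt-Co3 (0.55 ± 0.29, adjusted p = 0.373) were not called. The set of nuclear ribosome genes thus had a median of 0.09 in UPBIG against DOWN where the messages had 0.97, each on the log2 scale of the same fit.

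**Figure D4:**
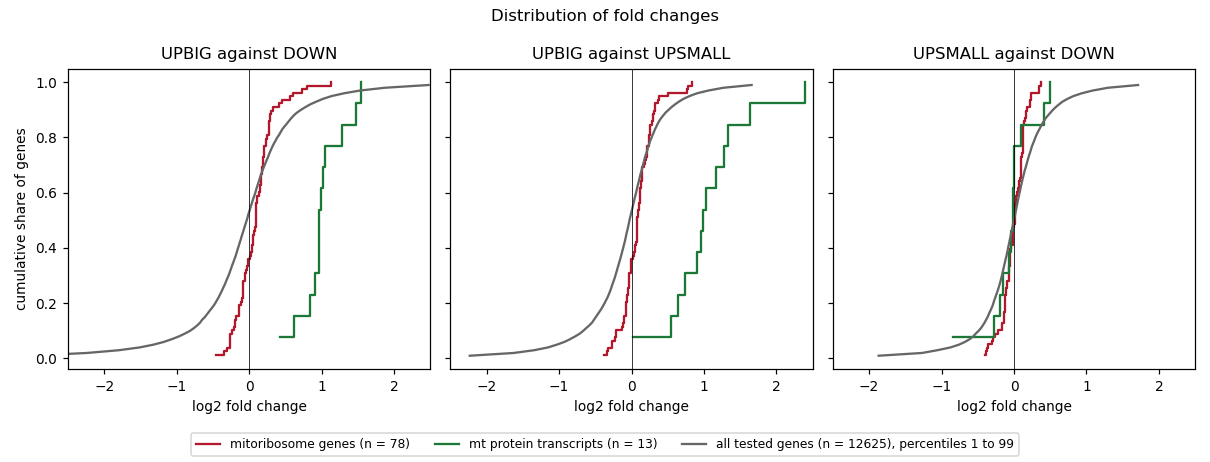
Cumulative share of genes by log2 fold change in the 3 comparisons, for the 78 mitoribosome protein genes, the 13 mitochondrial protein transcripts and all 12625 tested genes (percentiles 1 to 99). The mitoribosome genes are centred near 0 (medians 0.09, 0.08 and 0.01) and more narrowly spread than all genes, whereas the mitochondrial transcripts have medians of 0.97, 0.98 and -0.02.

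The RNA of the mitoribosome itself is only partly captured in cDNA made from polyadenylated RNA, and its levels are given with that limit. mt-Rnr2, the large ribosomal RNA, had 7918, 6535, 10756 and 7338 CPM in the UPBIG libraries, 5707, 4141, 3642 and 4912 CPM in the UPSMALL libraries and 2840.2, 2462, 2881 and 2200.4 CPM in the DOWN libraries. The 3 groups did not overlap. mt-Rnr2 rose by 1.65 ± 0.17 in UPBIG over DOWN (adjusted p = 1.28e-06), by 0.82 ± 0.16 in UPBIG over UPSMALL (adjusted p = 0.00387) and by 0.83 ± 0.16 in UPSMALL over DOWN (adjusted p = 0.0191). The last call was lost without UPSMALL 1 or DOWN 2, with an adjusted p of up to 0.075 and changes of 0.71 to 0.92 over all single omissions. mt-Rnr1, the small ribosomal RNA, averaged 1863 ± 1458 CPM in UPBIG, 844 ± 452 in UPSMALL and 676 ± 139 in DOWN and was not called (1.46 ± 0.60 in UPBIG against DOWN, adjusted p = 0.135).

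Other genes of mitochondrial translation were listed by role. Beside the counts below, 9.03% of all tested genes were called higher and 8.48% lower in UPBIG than in DOWN. Of 5 mitoribosome proteins with other symbols, Aurkaip1 was called higher in UPBIG than in DOWN, with 198 ± 16.6 CPM in UPBIG, 167 ± 18 in UPSMALL and 155 ± 20.3 in DOWN (0.35 ± 0.12, adjusted p = 0.044). That call was lost without any 1 of the UPBIG libraries, UPSMALL 3, DOWN 1, DOWN 2 or DOWN 3, without the low-count filter and under library totals (0.02, adjusted p = 0.928). None of 27 tested assembly factors was called in edgeR under TMM scaling, with 1 at an unadjusted p under 0.05 and a median of -0.02. DESeq2 called 1 of them lower, and under library totals edgeR called 5 lower. Of all tested genes DESeq2 called 1205 of 12615 lower, and edgeR under library totals 3237 of 12625. Of 15 translation factors 1 was called, Slirp, an RNA-binding partner that stabilises mitochondrial messages (0.30 ± 0.10, adjusted p = 0.0467), and it stood at -0.02 under library totals (adjusted p = 0.92). Its call was also lost without UPBIG 1, UPBIG 3, UPBIG 4, UPSMALL 3 or any DOWN library, and without the low-count filter.

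Of 20 mitochondrial tRNA synthetases 2 were called higher in UPBIG than in DOWN, or 10.0%, near the 9.03% of all tested genes. Iars2, which charges the isoleucine tRNA, had 33.6 ± 2.37 CPM in UPBIG, 25.3 ± 3.02 in UPSMALL and 24.2 ± 3.30 in DOWN (0.47 ± 0.14, adjusted p = 0.0261), a call lost without UPBIG 2, UPBIG 4 or DOWN 4 and under library totals (0.15, adjusted p = 0.478). Lars2, which charges the leucine tRNA, had 829, 268, 266 and 191 CPM in UPBIG, 452, 190.2, 132 and 80.8 CPM in UPSMALL and 37.7, 47.6, 39.8 and 44.2 CPM in DOWN. Its UPBIG and UPSMALL libraries overlapped and all lay above DOWN, with a wide spread within the UPBIG and UPSMALL groups. In UPBIG over DOWN Lars2 rose by 3.20 ± 0.64 (adjusted p = 0.00775), and by 2.51 to 3.43 over all single omissions. Whether reads from other RNAs were assigned to Lars2 was not tested.

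Genes for copying and transcribing the mitochondrial genome had 2 of 8 tested members called lower in UPBIG than in DOWN and none higher. Of all tested genes 8.48% were called lower in this comparison. Polg, the catalytic subunit of the mitochondrial DNA polymerase, had 10.3, 12.4, 10.2 and 9.61 CPM in UPBIG, 15.3, 16.5, 14.3 and 16.5 CPM in UPSMALL and 16.1, 14.9, 16.6 and 18.5 CPM in DOWN. It fell by 0.63 on the log2 scale in UPBIG against DOWN (SE 0.16, adjusted p = 0.00884), with all UPBIG libraries below the other 8. In UPBIG against UPSMALL its value was -0.56 ± 0.16 (adjusted p = 0.0461), a call lost in 12 of 17 alternatives, with an adjusted p of up to 0.127. Polg2, its accessory subunit, had 0.81, 1.02, 1.87 and 2.45 CPM in UPBIG, 3.5, 2.05, 3.82 and 2.38 CPM in UPSMALL and 4.63, 4.67, 6.08 and 5.32 CPM in DOWN, and fell by 1.75 in UPBIG against DOWN (SE 0.38, adjusted p = 0.00287). UPBIG lay below DOWN without overlap. Of 9 tested regulators of mitochondrial biogenesis, Nrf1, a factor that binds nuclear promoters of mitochondrial genes, was called lower in UPBIG (6.94 ± 1.77 CPM) than in DOWN (12.4 ± 2.43 CPM), at -0.83 ± 0.25 (adjusted p = 0.0262), with 7.84 ± 2.31 CPM in UPSMALL. The Nrf1 call was lost without UPBIG 1, UPBIG 4 or DOWN 3, with values of -0.94 to -0.68. In UPBIG against UPSMALL Polg was the only called gene of these 6 lists, and in UPSMALL against DOWN edgeR called none and DESeq2 called 1, a tRNA synthetase, higher. The number at an unadjusted p under 0.05 by edgeR in UPSMALL against DOWN was 3 of 20 synthetases, 2 of 8 genes for copying and transcribing the genome, 2 of 9 regulators and 1 in each of the other 3 lists. Over all tested genes it was 1623 of 12625.

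The libraries held 17109669 to 23282621 counts each, and all carried macrophage markers, 8 of 8 above 0 in each group, at a summed 123591 to 131603 CPM in UPBIG, 52855 to 120494 in UPSMALL and 76897 to 109617 in DOWN. Markers of other cells differed between the groups as well. The 6 monocyte markers summed to 19.1 to 31.4 CPM in UPBIG, 73.8 to 121 in UPSMALL and 230.4 to 279 in DOWN, and the 8 dendritic cell markers to 2.86 to 6.68 CPM in UPBIG, 5.99 to 32.5 in UPSMALL and 35.1 to 109 in DOWN. In UPBIG against DOWN 3 of 6 monocyte, 6 of 8 dendritic cell and 8 of 10 tested T and NK cell markers were called lower, and 2 of 4 tested neutrophil markers higher. The other 2 neutrophil markers had negative log2 fold changes and were not called, and the 4 ran from -1.5 to 3.59. Of all tested genes 9.03% were called higher and 8.48% lower in UPBIG than in DOWN. T and NK cell markers summed to 86.2 to 149 CPM in UPBIG, 35.5 to 75.6 in UPSMALL and 73.5 to 189 in DOWN, neutrophil markers to 382 to 418 in UPBIG, 162 to 219 in UPSMALL and 129.7 to 174 in DOWN, and lung epithelial markers to 25.2 to 235 in UPBIG, 16.4 to 69.8 in UPSMALL and 12.2 to 20.8 in DOWN. In UPBIG and UPSMALL most of the T and NK cell sum was Cd2, which stood at 96.4 CPM in UPBIG, 57.5 in UPSMALL and 52.8 in DOWN and not called in UPBIG against DOWN (0.87, adjusted p = 0.0771), whereas Cd3d, for example, had 0.793 CPM in UPBIG, 0.657 in UPSMALL and 11.5 in DOWN. At 0 in a whole group were Ncr1 and Cldn18 in UPBIG, Ncr1 and Gzma in UPSMALL, and Sftpb and Cldn18 in DOWN. Of 10 resident alveolar macrophage markers 6 were called higher and 1 lower in UPBIG than in DOWN, and of 4 tested B cell markers none was called, with none at an unadjusted p under 0.05. Cell cycle genes summed to 310 to 401 CPM in UPBIG, 386 to 481 in UPSMALL and 209.6 to 443 in DOWN, with 1 of 18 called, higher in UPBIG than in DOWN. The part of these cells and of cell division in the member changes was not tested.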

How the data were processed

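Expression was measured in 12 libraries of sorted alveolar macrophages, made with a full-length cDNA kit from lysed cells per the labels' protocols. The deposited table holds expected counts per gene, not normalized, which the authors made with STAR and RSEM on mm10 per the submitters' processing notes. For versions, annotation and use of strand, nothing is given in the sources used here. Columns were matched to samples by title, and groups were taken from the titles.

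Expected counts were rounded to whole numbers (13.8% of values were not whole). Genes were filtered with filterByExpr, scaled by TMM and tested with edgeR's quasi-likelihood test (edgeR 4.0.16, limma 3.58.1, R 4.3.3) on all 12 libraries with 3 groups and no replicate block. P-values were adjusted by Benjamini-Hochberg over all 12625 tested genes, and a call is an adjusted p under 0.05. CPM are TMM-scaled, and intervals are 95%. The steps were tested on simulated data. Alternatives were other size factors, library totals alone, no filter, the replicate block, DESeq2 1.42.0 and leaving out each library. Named members were the called ones, up to 12 in each direction, the 2 uncalled with the largest change in each comparison, and the 3 highest and lowest per kb. In other lists up to 3 called genes were named in each direction. Members and lists were chosen with earlier results of these data known. Shared exons were read from GENCODE vM21. Protein sequences were not used here.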

Additional observations from a re-analysis of the deposited data

Results flagged for a closer look

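Of 99 groups of 4 libraries examined, 5 held a library far from the other 3 by Dixon's 95% criterion, which chance gives in about 1 in 20 groups. Among the members, Mrps22 in UPBIG 1 stood at 13.5 CPM, above the other 3 UPBIG libraries. Among the other genes named, Aurkaip1 stood at 222 CPM in UPBIG 4, Lars2 at 829 CPM in UPBIG 1 and mt-Nd4 at 2656 CPM in UPBIG 1, the last below the other UPBIG libraries. The sum of mitochondrial protein transcripts per summed mitoribosome level was 3.35 in DOWN 4, below the other DOWN libraries.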

How the results depend on the processing

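With library totals alone in place of TMM, UPBIG against DOWN gave 2 members higher and 18 lower, with a median log2 fold change of -0.24. UPBIG against UPSMALL gave 4 lower with a median of -0.20, and the joint test called 13. Of all 12625 tested genes, this scaling called 518 higher and 3237 lower in UPBIG against DOWN. It called 1433 lower in UPBIG against UPSMALL and 3021 in the joint test. Summed member levels were then 5053 CPM in UPBIG, 5740.4 in UPSMALL and 5842 in DOWN, the mitochondrial sum in UPBIG was 37430 CPM, and Mrpl27 (-0.03) and Slirp (-0.02) turned in sign. In UPBIG against DOWN single omissions gave 1 to 2 members called lower, with 2 without UPBIG 3, and 6 to 10 called in all. Over all tested genes they gave 1777 to 2421 calls. With the replicate block UPBIG against UPSMALL gave 1 member lower (Mrps25), as with DESeq2. In UPBIG against DOWN the block gave 10 called in place of 8, adding Mrpl51 and Mrps28. Over all tested genes it gave 2607 called in place of 2210 in that comparison. The labels give no shared source for a number, so the numbers were not taken as pairs. The 12 same-numbered pairs correlated at -0.0285 to 0.154, 5 of them over 0.1. Of 24 best matches, each among the 4 libraries of another group, 18 had the own number. That hints at pairs, which the labels do not settle, and the main p-values come from the fit without the block. With the block, calls over all tested genes in UPSMALL against DOWN rose from 144 to 275, with no member among them. Of 595 values of named genes under alternatives, 523 kept call and direction, 62 lost the call, 8 gained it and 2 turned. The 1 gene added to these after the data were seen was Slc5a3. With 4 libraries a group, 1 uncalled member in each comparison, Mrps24, had an interval wider than 2-fold, and mt-Nd4l was at 0 counts in several libraries.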
